A study of Mus musculus with 8 samples.

Results

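MMERVK10C is a family of endogenous retroviruses of the mouse genome, and MMERVK10C-int is the name that repeat annotation gives to its internal, protein-coding part. The copies described here are the rows of the authors' repeat table with the family name MMERVK10C-int on chromosomes other than the random scaffolds, 98 of the 99 rows with that name and of the 17857 elements in the table. The family was selected on its read counts and RPKM, with its response to DAXX loss and to the culture medium already known, so those contrasts are given as descriptions, with no test. The table lists elements of at least 5001 bp, so shorter fragments of the family and solitary long terminal repeats were not analysed here.

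RNA was sequenced from mouse embryonic stem cells of 4 lines. J1 is a male wild-type line in general use. TKO carries a knockout of 3 DNMTs, the enzymes that methylate DNA, and each line was also studied with DAXX knocked out, giving J1 DAXX-knockout and TKO DAXX-knockout cells. The genotype field reads WT for the DAXX-knockout J1 cells, and the knockout is named in their titles and descriptions. Both TKO lines lack the 3 DNMTs, so the DAXX comparison within TKO was made on that background. Each line was grown in regular embryonic stem cell medium or in medium with 2i and vitamin C, which added 1 µM PD0325901 (a MEK inhibitor), 3 µM CHIR99021 (a GSK3b inhibitor) and 100 µg/ml vitamin C for 72 h. This second medium is called 2i below. Each of the 8 combinations was 1 library of cytoplasmic RNA captured on oligo-dT beads, with no replicate, and whether a line was 1 clone was not given in the sources used here.

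Endogenous retroviruses are remnants of past infections of the germ line that can still be transcribed. In embryonic stem cells the class to which MMERVK10C belongs, often called ERVK and shared with the intracisternal A particles, is held silent by TRIM28 with the histone methyltransferase SETDB1 and, in part, by DNA methylation. DAXX is a histone chaperone that works with ATRX to place a histone variant on repeats, and 2i with vitamin C is known to lower DNA methylation. No nucleotide sequence is shown because the positions are those of mm9 and no genome of that build was used here.

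Library totals, recovered from each element's read count and RPKM (reads per kilobase of element, scaled to the library total), ran from 67.4 M to 99.1 M reads (M is 1000000), and the listed repeats took 8.28% to 19.3% of them. LINE elements, which make up most of the table, differed between libraries too, and their ratio is given beside that of MMERVK10C-int for every pair of libraries below. The assembled transcripts carry no gene names, so Daxx, the DNMT genes and stem cell markers were not examined here and the labels are taken as given. In bulk RNA, fewer cells with an active copy and less RNA per cell cannot be told apart.

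Of the 98 copies, 3 had no read in any library, 13 had 1 to 83 reads over the 8 libraries together, and 82 had 137 reads or more. All of the copies together had 267209 reads. A minimum of 100 reads was used wherever a ratio is given for single copies, which left those 82. The copies are near relatives in sequence, and how reads that match several of them were assigned was not given in the sources used here, so single copies are not independent of one another.

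The family as a whole gave 225 RPM (reads in every 1000000 of the library total) in J1 in regular medium and 62.4 in J1 in 2i. It gave 547 in J1 DAXX-knockout in regular medium and 213 in J1 DAXX-knockout in 2i. In the cells without DNMTs it gave 319 in TKO in regular medium, 142 in TKO in 2i, 1686 in TKO DAXX-knockout in regular medium and 197 in TKO DAXX-knockout in 2i. The highest library was the one that lacked both DAXX and the DNMTs in regular medium, and the lowest was J1 in 2i. The 95% Poisson intervals, which cover counting error only, were narrow, from 60.5 to 64.3 in the lowest library and from 1676 to 1695 in the highest. The order of the levels as deposited was TKO DAXX-knockout regular, J1 DAXX-knockout regular, TKO regular, J1 regular, J1 DAXX-knockout 2i, TKO DAXX-knockout 2i, TKO 2i and J1 2i. None of the neighbouring intervals in that order overlapped, but with 1 library per group the spread between cultures is unknown, so counting error alone does not say that neighbours differ. The middle of the order depended on the scaling. Under TMM and median-ratio scaling, which set library sizes from the bulk of the elements, and LINE1 scaling, which sets them from LINE1 reads, TKO DAXX-knockout 2i was at 367 to 374, above J1 regular (236 to 239), and TKO regular was at 162 to 173, below J1 DAXX-knockout 2i (180 to 183). As a share of all reads on elements of the LTR type, the family took 0.268% in J1 2i and 3.48% in TKO DAXX-knockout regular, the lowest and highest shares.

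**Figure D1:**
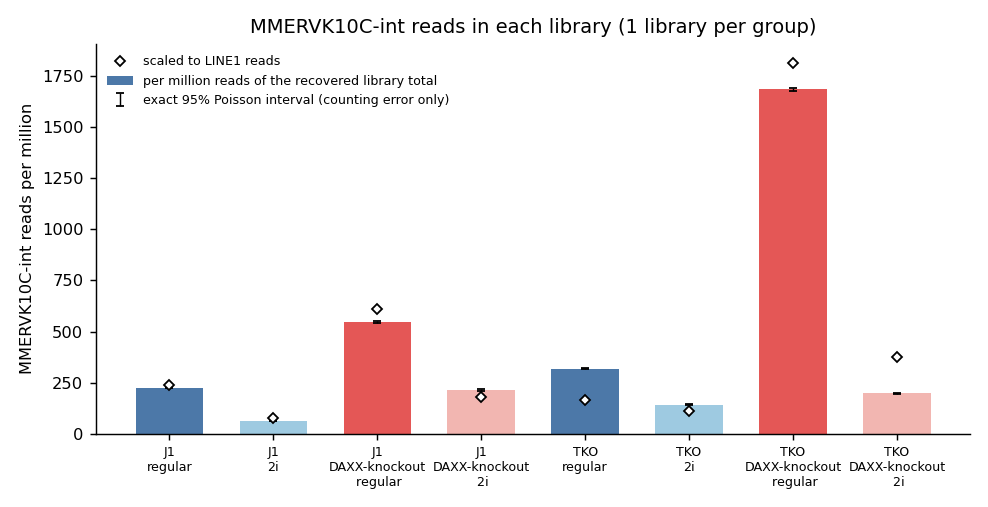
RPM of MMERVK10C-int (vertical axis, linear from 0) in each of the 8 libraries. Bars are relative to the recovered library total, lines on the bars are exact 95% Poisson intervals, and open diamonds are the same reads scaled to the library's LINE1 reads. TKO DAXX-knockout in regular medium is the highest library on both scales, at 1686 RPM as deposited, and J1 in 2i is the lowest.

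In all 4 pairs of libraries that differed in DAXX alone, the RPM was higher without DAXX. The ratio was 2.43 in J1 in regular medium, where the summed LINE reads had a ratio of 0.938. It was 3.42 in J1 in 2i, where LINE reads had 1.47. It was 5.29 in TKO in regular medium, with 0.481 for LINE reads, and 1.39 in TKO in 2i, with 0.406 for LINE reads. The ratio of MMERVK10C-int was thus above that of LINE elements in each pair, and the 4 ratios averaged 1.48 ± 0.82 on the log2 scale (SD, n = 4 pairs).

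For the medium the direction was the opposite in all 4 pairs. The ratio of RPM in 2i to that in regular medium was 0.277 for J1 and 0.390 for its DAXX knockout, 0.446 for TKO and 0.117 for its DAXX knockout, and the mean log2 ratio was -1.87 ± 0.87 (SD, n = 4 pairs). LINE reads had ratios of 0.844, 1.33, 0.672 and 0.568 in the same pairs. As deposited, the highest 2i value was 213 RPM and the lowest regular value was 225, but under the other scalings TKO DAXX-knockout 2i was above J1 regular and TKO regular, so the media then overlapped.

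Both differences together can be read from the DAXX-knockout libraries in 2i. DAXX-knockout cells in 2i had 0.947 times the RPM of DAXX-intact cells in regular medium in J1, and 30 of 82 copies were above their value in the intact cells. In TKO the same ratio was 0.619, with 3 of 82 copies above. Both counts of copies were made as deposited only, and the share over all elements was not computed, so nothing is read from them. The TKO ratio of the family depended on the scaling. It was 2.15 with TMM scaling, 2.27 with median-ratio scaling and 2.26 with scaling to LINE1 reads. The J1 ratio was 0.761 to 0.776 under those scalings. Every DAXX ratio stayed above 1 and every medium ratio below 1 under the same scalings. Those scalings are not separate checks, since LINE elements make up most of the table and gave nearly the same library sizes in each. They take LINE reads as constant between libraries, which was not tested. The DAXX ratios in TKO changed most, to 10.4 to 11.1 in regular medium and 3.29 to 3.51 in 2i.

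The reads of the family were spread over many copies, with 1 copy far ahead. The most read copy took 8.34% of the family's reads and the 10 most read took 27.5%, where equal shares would give 10.2%. It took 23 copies to reach 50% of the reads and 55 to reach 90%. The effective number of copies, which is the number of equally read copies that would give the same spread (the inverse of the summed squared shares), was 48.3, or 49.2% of the 98. In the same table the effective number was 70.7% of the 814 copies of IAPEz-int, an intracisternal A particle family, 94.3% of the 582 copies of MERVL-int, an ERVL family, and 80.8% of the 45 copies of RLTR4_MM-int, a family related to murine leukemia viruses. The 98 copies of MMERVK10C-int include 16 with under 100 reads, whereas 812 of the IAPEz-int copies and all of the RLTR4_MM-int copies had at least 100.

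**Figure D2:**
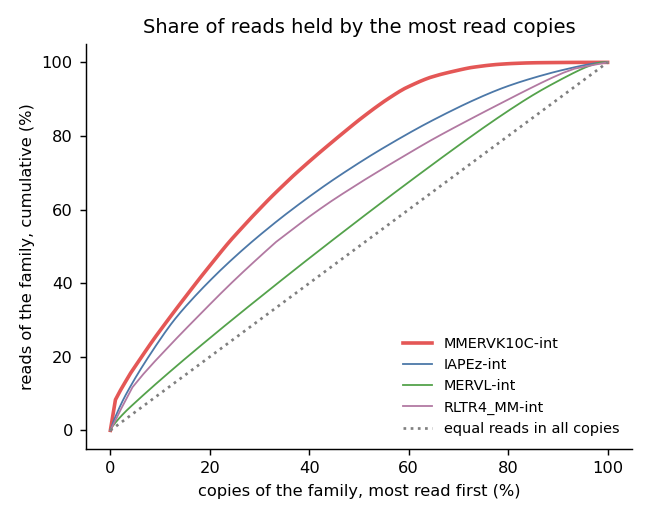
Cumulative share of a family's reads over 8 libraries (vertical axis, %) against the share of its copies, most read first (horizontal axis, %), for 4 families. The dotted line marks equal reads in all copies, and the curve of MMERVK10C-int lies above the other 3, with a step at its first copy, which holds 8.34% of the reads.

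The concentration was similar in the 8 libraries. The share of the 10 most read copies was lowest in TKO DAXX-knockout 2i, at 27.1%, and highest in J1 2i, at 29.7%. The effective number of copies ran from 39.6 in J1 2i to 51.3 in TKO DAXX-knockout 2i, and 83 to 94 copies had at least 1 read in a library. The library with the most reads, TKO DAXX-knockout regular, had an effective number of 49.9, close to the 48.3 of J1 regular. The same chromosome 8 copy was the most read in all 8 libraries, and 5 to 9 of a library's own 10 most read copies were among the 10 most read over all libraries.

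That copy lay on chromosome 8 at positions 3946329 to 3951359 of mm9, as the file gives them, and was 5030 bp long, with 22275 reads against 6917 for the next. In J1 cells its RPKM was 3.60 in regular medium and 1.32 in 2i, and without DAXX 9.54 in regular medium and 3.92 in 2i. In TKO cells it was 6.43 in regular medium and 2.79 in 2i, and without DAXX 25.42 in regular medium and 2.75 in 2i. In every library it was above the highest of the other copies, by 2.89 to 5.27 times, and it was 5.85 to 11.0 times the median of the 82 copies. It was lower in 2i in all 4 lines. It was higher without DAXX in J1 in both media and in TKO in regular medium, with ratios of 2.65, 2.96 and 3.96, and in TKO in 2i the ratio was 0.988, from 1055 and 1034 reads, and 2.35 to 2.50 under the other scalings. Without the 10 most read copies, the mean log2 ratio of the family was 1.50 for DAXX and -1.89 for the medium.

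**Figure D3:**
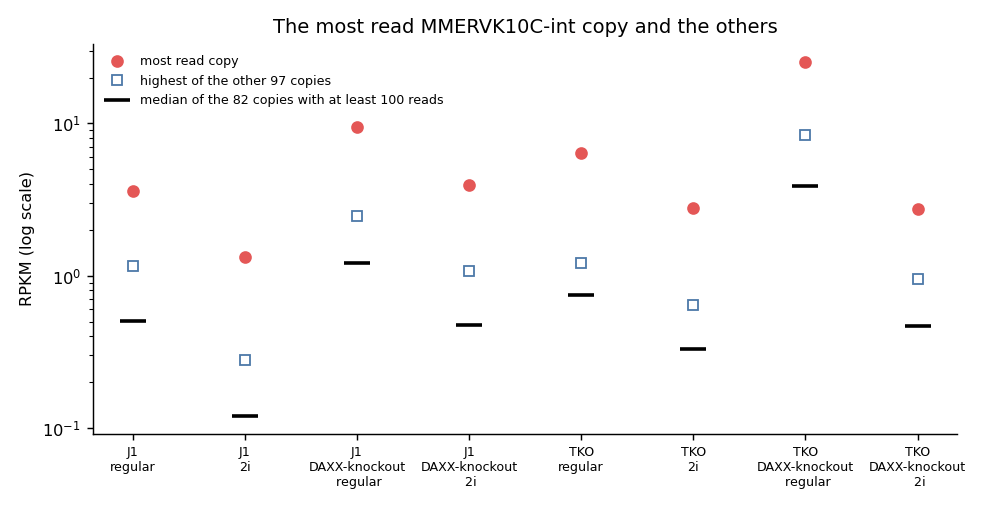
RPKM on a log axis in each of the 8 libraries for the most read copy (filled circles), the highest of the other 97 copies (open squares) and the median of the 82 copies with at least 100 reads (bars). The 3 marks keep their order in every library, and all are highest in TKO DAXX-knockout regular, where the most read copy reached 25.42 RPKM.

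The next copies formed a slope with no second step. A copy on chromosome 10 (21448137 to 21455717, 7580 bp) had an RPKM of 1.05 (regular) and 0.21 (2i) in J1, 1.85 and 0.86 in J1 DAXX-knockout, 0.97 and 0.55 in TKO, and 5.38 and 0.72 in TKO DAXX-knockout cells. One on chromosome 11 (121257975 to 121263005, 5030 bp) had, in the same order of libraries, an RPKM of 1.16, 0.16, 2.46, 1.07, 1.11, 0.50, 8.34 and 0.89. One on chromosome 9 (64258742 to 64263770, 5028 bp) had an RPKM of 0.68, 0.14, 2.14, 0.89, 1.22, 0.61, 7.05 and 0.95. All of these were lowest in J1 2i and highest in TKO DAXX-knockout regular. The 9 copies ranked after the chromosome 8 copy lay between 0.14 and 0.28 RPKM in J1 2i and between 4.44 and 8.34 RPKM in TKO DAXX-knockout regular, so those 2 libraries did not overlap across them.

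**Figure D4:**
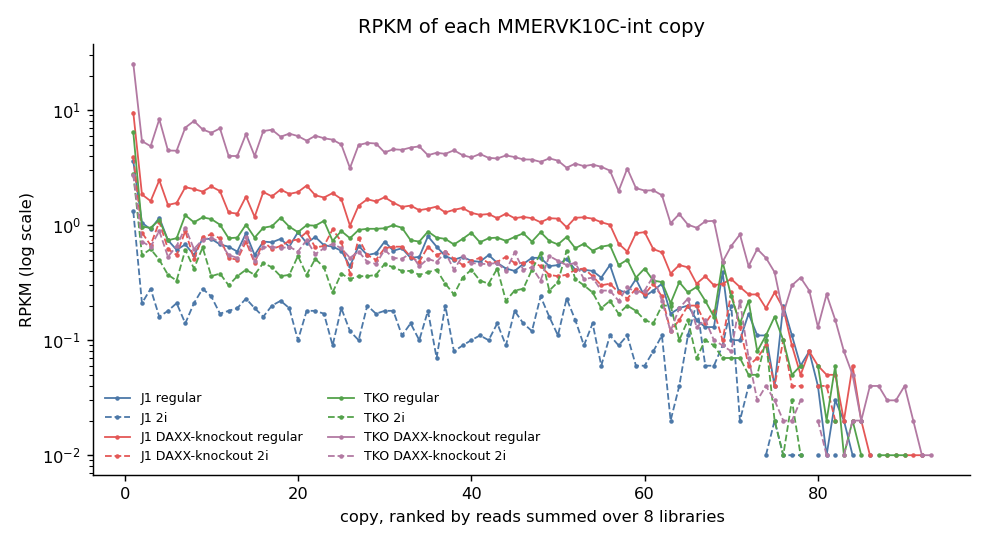
RPKM on a log axis of each of the 98 copies, ranked by their reads over 8 libraries (horizontal axis), with 1 line for each library and values of 0 left out. TKO DAXX-knockout regular lies above and J1 2i below for nearly all copies up to about the 60th, and the lines fall together at the end, where copies have under 100 reads.

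Most copies had the same directions as the family. Without DAXX, 69 of the 82 copies were higher in 4 of 4 pairs, where 7.18% of all 13007 elements with at least 100 reads were. In 2i, 79 of the 82 were lower in 4 of 4 pairs, against 12.9% of all elements. Both held for 68 of the 82 copies, against 0.592% of all elements, and those 68 were most of the 77 elements of the table for which both held. The others were 8 LINE elements and 1 RLTR6-int element. In 80 of the 82 copies the highest library was TKO DAXX-knockout regular (2.14% of all elements), and in 74 the lowest was J1 2i (11.5%). Under the other scalings these counts were 81 and 66. The rule that chose the family used these contrasts, so nothing is read from these counts beyond the description of the copies. The count of 68 was chosen as a measure after the data were seen, and it depended on the scaling mainly through the other elements. Under TMM, median-ratio and LINE1 scaling both directions held for 72, 70 and 72 copies of 143, 125 and 133 elements in all, so the copies were 50.3% to 56.0% of those elements, against 88.3% as deposited. Without the TKO 2i library they were 75 of 182 elements.

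The ratios of single copies lay close around those of the family. For DAXX, the median ratio over the 82 copies was 2.46 in J1 in regular medium (quartiles 2.13 and 2.82), 3.47 in J1 in 2i (2.69 and 4.59), 5.40 in TKO in regular medium (4.6 and 6.0) and 1.42 in TKO in 2i (1.18 and 1.75). The medians over all 13007 elements in those pairs were 0.966, 1.44, 0.479 and 0.425. The lower quartile of the copies was thus above the median element in every pair. For the medium, the median ratio was 0.262 for J1 (quartiles 0.200 and 0.348), 0.389 for its DAXX knockout (0.352 and 0.423), 0.432 for TKO (0.366 and 0.515) and 0.118 for its DAXX knockout (0.0978 and 0.134). All elements had medians of 0.872, 1.26, 0.688 and 0.594 there. The upper quartile of the copies lay below the median element in each pair.

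**Figure D5:**
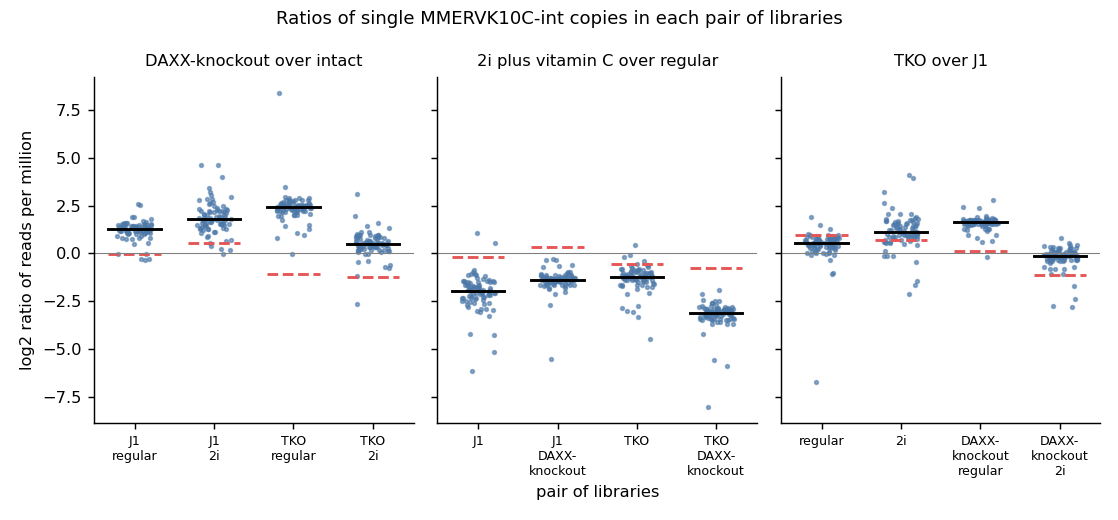
Log2 ratio of RPM for each of the 82 copies with at least 100 reads (points) in 4 pairs of libraries for DAXX, 4 for the medium and 4 for the DNMTs (horizontal axis). Black lines are medians of the copies and dashed red lines medians of all 13007 elements. A library with 0 reads, which occurs for 2 copies, was set to 0.5 reads for plotting. DAXX points lie mostly above 0 and medium points below 0, while the DNMT points lie above 0 in 3 pairs and around 0 in DAXX-knockout cells in 2i.

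Of the 14 copies for which the 2 directions did not both hold in all pairs, 10 had under 1000 reads, of the 17 copies at that depth, and 4 were among the 65 copies with 1000 reads or more. In 13 of the 14 a DAXX pair went the other way, most often in TKO in 2i, where 9 of the 82 copies had a ratio below 1, against 5, 1 and 1 in J1 regular, J1 2i and TKO regular. The 4 with 1000 reads or more included the chromosome 8 copy above and all went below 1 in TKO in 2i only. The other 3 were copies on chromosomes 16, 8 and 1 with DAXX ratios of 0.583, 0.750 and 0.619 in that pair. All 4 turned under the other scalings, with ratios of 1.38 to 2.50 there, and the copies higher without DAXX in 4 of 4 pairs then numbered 75 or 76.

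Among the 65 copies with 1000 reads or more, the lowest mean DAXX ratios were those of the chromosome 16 and chromosome 8 copies just named, both at 1.74. A pair of copies on chromosome 7 of 5076 bp each, with 836 and 531 reads, had lower ones. The one at 11683382 had an RPKM of 0.39 (regular) and 0.09 (2i) in J1, 0.31 and 0.10 in J1 DAXX-knockout, 0.48 and 0.07 in TKO, and 0.48 and 0.09 in TKO DAXX-knockout cells. Its DAXX ratios were 0.785, 1.14, 0.991 and 1.28, while its medium ratios were 0.138 to 0.337. As deposited, all 4 of its regular libraries were above all 4 in 2i. The one at 11421190, which lies 257116 bp away, had DAXX ratios of 1.41, 1.59, 1.94 and 1.36 and medium ratios of 0.166 to 0.238. Under the other scalings the mean log2 DAXX ratio of the first moved from 0.04 to 0.51 or 0.52 and that of the other from 0.64 to 1.11 or 1.12, both still below the 1.95 or 1.96 of the family under those scalings. One on chromosome 12 (18788159 to 18793198) had a lower mean ratio than either, on 137 reads in all, with 58 reads in TKO DAXX-knockout regular and 1 to 29 in the other libraries.

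The largest mean DAXX ratio among the copies with 1000 reads or more was that of a copy on chromosome 4 (32117141 to 32122174, 5033 bp). Its RPKM was 0.65 (regular) and 0.09 (2i) in J1, 1.90 and 0.92 in J1 DAXX-knockout, 0.73 and 0.26 in TKO, and 5.54 and 0.69 in TKO DAXX-knockout cells. The ratios were 2.92, 10.8, 7.63 and 2.66, and the largest rested on 29 reads in J1 2i. Copies on chromosome 2 (5695916) and chromosome 18 (8170725) were also among the 3 highest by mean ratio, on few reads. The first had 3, 0, 18, 17, 11, 1, 92 and 2 reads in the libraries in the order above, and the other had 40, 0, 40, 1, 0, 0, 126 and 0. Most of the reads of both came from TKO DAXX-knockout regular, and no fold is given for them.

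As deposited, the medium ratio was above 1 in at least 1 pair for 3 copies, and under the other scalings for 6 to 9. A copy on the X chromosome (150522313 to 150527414) had 0.10 RPKM in J1 regular and 0.20 in J1 2i, from 38 and 70 reads, a ratio of 2.10, and in the other lines its ratio was 0.126 to 0.781. Another, on chromosome 10 (3253524 to 3258603), had a ratio of 1.44 in J1, from 57 and 72 reads, and 0.134 to 0.661 in the other lines. The other of the 3 was the chromosome 18 copy with 0 reads in 4 libraries. At the other end, a copy on chromosome 4 (111872554) had 41 reads in J1 regular and 1 in J1 2i, and a copy on chromosome 7 (51417824) had 84 and 4.

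The DNMT comparison was not used to choose the family and was tested. The family's ratio of TKO to J1 was 1.41 in regular medium, 2.28 in 2i, 3.08 in DAXX-knockout cells in regular medium and 0.924 in DAXX-knockout cells in 2i, higher in 3 of 4 pairs. With edgeR's quasi-likelihood test over 44 families, the log2 fold change was 0.87 with a p of 0.0350 and a Benjamini-Hochberg adjusted p of 0.171, so the family did not pass the threshold of 0.05. Of the 44 families 11.4%, or 5, passed as higher in TKO and none as lower, and 9 had an unadjusted p under 0.05. DESeq2 on the same sums gave an adjusted p of 0.0319, and over all alternatives the adjusted p ran from 0.0297 to 0.874. Without the TKO DAXX-knockout 2i library the edgeR log2 fold change was 1.12 with an adjusted p of 0.0297, and without TKO DAXX-knockout regular it was 0.51 with an adjusted p of 0.874. The ratio of LINE reads in the same 4 pairs was 2.02, 1.61, 1.04 and 0.444. Scaling turned 2 of the family's ratios: TKO over J1 in regular medium became 0.686 to 0.725, and that in DAXX-knockout cells in 2i became 2.01 to 2.08.

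No single copy passed in that comparison. Of the 76 copies with a mean RPKM of at least 0.1, 0 had a Benjamini-Hochberg adjusted p under 0.05 with edgeR, where 0.582% of the 11332 elements tested were called higher and 0.0265% lower. At an unadjusted p under 0.05 by edgeR there were 22 copies, against 232 of the 11332 elements. DESeq2 and limma also called 0 copies. They had 47 and 9 copies at an unadjusted p under 0.05, against 476 and 373 of the 11332 elements. For limma that was on log2(RPKM + 0.1), and on log2(RPKM + 1) it had 0 copies, against 293 elements. Under the other scalings edgeR had 25 to 27 copies, against 918 to 1014 elements. These unadjusted counts thus depended on the settings. The log2 fold change was above 0 with edgeR for 74 of the 76 copies, a count that was not made over all elements. As deposited, the median TKO to J1 ratio over all elements with at least 100 reads was 1.95 in regular medium and 1.65 in 2i. In DAXX-knockout cells it was 1.08 in regular medium and 0.452 in 2i. Nothing is therefore read from the count of 74. The smallest p was that of a copy on chromosome 1 (115517779 to 115525412, 7633 bp), at 0.00721 with an adjusted p of 0.869 by edgeR, and its ratios were 1.20, 9.22, 2.74 and 1.01, the largest of which rested on 11 reads in J1 2i. In 25 of the 82 copies with at least 100 reads TKO was higher in 4 of 4 pairs as deposited, against 2.65% of all elements. That count was not made under the other scalings, where the family's ratio in DAXX-intact cells in regular medium was 0.686 to 0.725. The pair of DAXX-knockout libraries in 2i was where most copies went the other way as deposited, since 57 of 82 had a ratio below 1 there. Under the other scalings the family's ratio in that pair was 2.01 to 2.08. The count of 57 was not made under those scalings or over all elements, so nothing is read from it. The median ratio in that pair as deposited was 0.914 over the 82 copies and 0.452 over all elements with at least 100 reads. The median copy thus lay above the median element.

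Whether the ratio for 1 factor depended on another was tested with interaction terms over the 44 families. The DAXX by DNMT term was -0.022 on the log2 scale with an edgeR adjusted p of 0.976, the DAXX by medium term was -0.71 with 0.967, and the DNMT by medium term was -0.51 with 0.827. With 3 residual degrees of freedom none of the 44 families passed for any term by edgeR, and at an unadjusted p under 0.05 there were 19, 0 and 0 families. DESeq2 called 23 families lower for the first term and 0 for the other terms, and MMERVK10C-int was not among them, with an adjusted p of 0.973. The DAXX by DNMT term of MMERVK10C-int was 1.23 to 1.28 under the other scalings, also short of the threshold.

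A larger share of the longer copies had few reads. The 98 copies measured 5006 to 7669 bp, and 70 of them were shorter than 5200 bp. Of the 77 copies shorter than 6 kb, 6 had under 100 reads, and of the 21 copies of 6 kb or more, 10 did. Among the longer ones, 9 copies measured 7500 to 7600 bp, a range set after the values were seen. Of these, 1 had 38 reads, and the other 8 had 4029 to 6917 reads each, 16.0% of the family's reads together, with a mean RPKM of 0.838 to 1.45. The 4 of these 8 on chromosomes 10 (2 copies), 15 and 17 were among the 10 most read copies. The median fold from the mean of 4 log2 ratios was 2.64 for DAXX and 0.296 for the medium in those 8 copies, and 2.92 and 0.253 in the copies shorter than 6 kb with at least 100 reads. Copies lay on 21 chromosomes. Chromosome 8 held 13.2% of the reads, mostly from its most read copy, while the 6 copies on X and Y held 0.432% and the Y copy had 0 reads.

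The transcripts that the authors assembled in each library, with values in FPKM (the matching unit for fragments of a transcript), gave another reading of the same RNA. Between 20133 and 23892 loci were assembled per library. Of the 98 copies, 10 had at least 50% of their length inside a locus in any library, 5 to 10 copies in a given library. The share over all listed elements was not computed, so this count is not read as a trait of the family. For 8 of these 10 the loci were 23373 to 422020 bp long, so the copy was a small part of a longer unit and the locus's FPKM is not a value of the copy. Those loci included the chromosome 9 copy above. The remaining 2 lay in shorter loci. The one on chromosome 13 (25444241) had a locus of 5934 bp with an FPKM of 0.927 in TKO DAXX-knockout regular only, and the copy on chromosome 7 at 51417824 had loci of 15397 and 15517 bp in J1 DAXX-knockout 2i (FPKM 0.702) and TKO DAXX-knockout regular (FPKM 1.51). The shorter loci of those 2 copies, from 3 library and copy pairs, were in DAXX-knockout libraries. Short loci over less than 50% of the most read copy, described next, were also assembled in DAXX-intact libraries. No share over all elements was computed, so nothing is read from this about DAXX.

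The most read copy had an assembled locus of its own in 7 of 8 libraries, all but J1 2i, its lowest library by RPKM. The locus began at 3945962 to 3945993, before the copy's first position, and ended inside the copy. It was 1045 bp long in J1 regular and 2053 to 2133 bp in the other 6, covering 14.1% to 35.1% of the copy. Its FPKM was 5.90 in J1 regular, 4.32 in J1 DAXX-knockout regular, 2.23 in J1 DAXX-knockout 2i, 3.83 in TKO regular, 1.82 in TKO 2i, 12.99 in TKO DAXX-knockout regular and 1.50 in TKO DAXX-knockout 2i. TKO DAXX-knockout regular was again the highest. J1 regular was above J1 DAXX-knockout regular in FPKM, the reverse of the copy's RPKM, and its locus was the shorter one. The locus did not extend over most of the copy in any library, while the RPKM counts reads over the whole 5030 bp.

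No other family tested had both directions in all pairs. Of the 43 other families with a mean of at least 1 RPM, 1 was higher without DAXX in 4 of 4 pairs and 6 were lower in 2i in 4 of 4 pairs, and for 0 did both hold. Under the other scalings 6 or 7 were higher without DAXX and 1 to 3 lower in 2i, and for 0 did both hold. The closest by the root mean square distance of centred log2(RPM + 0.1) over the 8 libraries were RLTR4_MM-int at 0.81, MuLV-int at 0.91 and MuRRS-int at 1.10, against a median of 1.38 over the other families and a largest value of 2.39. RLTR4_MM-int had DAXX ratios of 4.85, 1.94, 3.49 and 0.824, but its medium ratios included 1.38 in J1 and 1.17 in TKO. The distance is a description of 8 single libraries.

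None of the relatives of the ERVK class that were tested had both directions in all pairs. The list of families whose names start with IAP, ETn, MMETn, MMERVK, MYSERV or ERVB held 10 others, of which 9 had at least 1 RPM. IAPEz-int, the most read intracisternal A particle family, was higher without DAXX in 4 of 4 pairs, with ratios of 2.49, 10.3, 2.36 and 2.04. In contrast to MMERVK10C-int it was also higher in 2i in 4 of 4 pairs, with ratios of 1.47, 6.09, 1.32 and 1.13. IAPEy-int and IAPLTR3-int were higher in 2i in 4 of 4 pairs as well, with 1.92 to 5.03 and 1.06 to 2.03. IAPEY3-int was the 1 relative lower in 2i in 4 of 4 pairs, with ratios of 0.189, 0.105, 0.332 and 0.680 as deposited, but the last was 1.19 or 1.20 under the other scalings, and its DAXX ratios of 1.85, 1.03, 0.555 and 1.14 were mixed. The abundant ETn families ETnERV2-int and MMETn-int had medium ratios between 0.717 and 1.19 as deposited. The directions given for IAPEz-int, and those of the medium for IAPEy-int and IAPLTR3-int, held under the 3 other scalings, where 3 or 4 of the 9 relatives were higher without DAXX in 4 of 4 pairs and 0 had both directions of MMERVK10C-int. In the DNMT test 3 of the 9 passed as higher in TKO with edgeR, IAPEy-int, IAPLTR3-int and ETnERV3-int, with adjusted p of 0.000697, 0.0337 and 0.0341, and 0 passed as lower.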

How the data were processed

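Per the file headers, the authors deposited a table with a read count and an RPKM value for each repeat element and library, and FPKM of transcripts assembled in each library. mm9, TopHat, Bowtie2 2.2.4, Cufflinks and Cuffdiff are named in the submitters' processing notes, with no role. How reads with several matches were counted is not given in those notes or the labels. The members and lists were chosen with earlier results of these data known.

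Library totals were recovered from count and RPKM (recomputed RPKM within 0.011 for 100% of elements). Reads were summed over copies and divided by the totals. edgeR 4.0.16 (R 4.3.3) tested the DNMT contrast and interactions on all 8 libraries, with DAXX and medium as covariates and 4 residual degrees of freedom (3 with an interaction), for families with a mean of at least 1 RPM and elements with a mean RPKM of at least 0.1, two-sided, adjusted over all tested at 0.05. limma 3.58.1, on log2(value + 0.1), and DESeq2 1.42.0 were alternatives, as were 3 scalings, other filters and leaving out each library. DAXX and medium ratios had no test. Named copies were the 10 most read and, among those with at least 100 reads, the 3 highest and 3 lowest by mean log2 ratio for DAXX, medium and DNMT; a library with 0 reads was set to 0.5 reads in ratios of single copies. Other copies were singled out after their values were seen. With 1 library per group, p-values measure departures from additivity of the factors, not spread between cultures.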

Additional observations from a re-analysis of the deposited data

Results flagged for a closer look

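As deposited, among the 22 named copies with reads in every library, an effect had opposite directions in 2 groups of pairs for 4 copies. This was not tested for single copies, and copies that were not named were not searched, so the count is not one for the family. The copy on chromosome 10 at 3253524 had TKO to J1 ratios of 1.96 and 3.07 in regular medium, with DAXX intact and knocked out, and 0.317 and 0.622 in 2i, a difference of 2.47 in mean log2 ratio between the media. The copy on the X chromosome at 150522313 had 2.43 and 1.93 in regular medium and 0.365 and 0.311 in 2i, a difference of 2.68. On chromosome 1, the copy at 49031817 had 1.37 and 1.96 in regular medium and 0.228 and 0.571 in 2i, a difference of 2.18, on 1 to 48 reads per library. The copy on chromosome 7 at 11683382 had 1.24 and 1.56 in regular medium and 0.737 and 0.829 in 2i, a difference of 0.83. That copy's DAXX ratios were 0.785 and 0.991 in regular medium and 1.14 and 1.28 in 2i, a difference of -0.45. Only the X chromosome copy kept the opposite directions under TMM, median-ratio and LINE1 scaling, with differences of 1.89 to 1.96. The difference between the media was then 1.67 to 1.74 for the chromosome 10 copy, 1.39 to 1.45 for the chromosome 1 copy and 0.039 to 0.11 for the TKO to J1 ratios of the chromosome 7 copy, and -0.36 to -0.21 for its DAXX ratios, with at least 1 pair on the other side of 1 in each. Each of these 4 copies had under 1000 reads over the 8 libraries.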

How the results depend on the processing

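The mean log2 ratio of the family for DAXX was 1.95 or 1.96 under the 3 other scalings and 1.18 to 1.82 when 1 library, and so its pairs, was left out. For the medium it was -1.59 to -1.55 and -2.10 to -1.46. The DNMT log2 fold change was 0.70 to 0.72 under the scalings and 0.51 to 1.12 with 1 library left out, and it passed the threshold with DESeq2 (0.87) and without TKO DAXX-knockout 2i. The DAXX by DNMT term turned from -0.022 to 1.26 with TMM, 1.23 with median-ratio and 1.28 with LINE1 scaling, and ran from -0.90 to 0.73 with 1 library left out. The DNMT by medium term turned to 0.024, 0.061 and 0.043 under those scalings, and ran from -1.20 to 0.14. The DAXX by medium term ran from -1.32 to -0.10. The cause of these changes was not tested, and 0 of the interaction terms passed the threshold in any alternative. Copies called between TKO and J1 numbered 0 to 3 with 1 library left out, with 3 when J1 DAXX-knockout 2i and 1 when TKO DAXX-knockout 2i was the library left out. The share of the 10 most read copies was 29.1% when each library's own 10 were taken, 22.9% without the most read copy, and 27.4% to 28.1% with 1 library left out.

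Other measures, and the scalings of single copies and of the other families, were added after seeing the data. The 68 copies with both directions became 72, 70 and 72 under TMM, median-ratio and LINE1 scaling, 69 of 95 with a minimum of 1 read, 61 of 65 with 1000 reads, and 68 to 75 with 1 library left out. Copies inside an assembled locus fell from 10 to 2 when only loci shorter than 20 kb were kept. No paired analysis was possible because each group holds 1 library, so no replicate numbers pair samples; the pairs given here are libraries that differ in 1 factor. Depth limits the copies with few reads, and 3 reads in a library were 0.0303 to 0.0445 RPM. Ratios of single copies required 100 reads over the 8 libraries together, so a single library could hold fewer than 3.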
